A study of Mus musculus with 6 samples.

Results

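Oncostatin M receptor and IL-6 family signalling was examined in *Dj1* knockdown myotubes through 10 genes of the 30854 gene names on the array. These were the ligands IL6 and LIF, the receptor subunits OSMR, IL6ST, LIFR and IL6RA, the transcription factors STAT3, CEBPB and CEBPD and the inhibitor SOCS3, written as in the probe file. The genes were selected on the signal of these same 6 arrays in siDJ-1 against Scramble, where an OSMR probe had the highest difference of 17890 tested probes. Their differences between the groups are therefore a description, given with no p-value. All probes carrying one of these names were taken, which gave 24 probes, and each probe was kept separately.

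C2C12 myoblasts are a mouse muscle precursor line, and in low serum they fuse to form myotubes. Myoblasts in medium with 10% fetal bovine serum were transfected with 60 nM of either a scramble siRNA (the Scramble group, 3 arrays) or an siRNA against DJ-1 (the siDJ-1 group, 3 arrays). After 48 h the medium was changed to 2% horse serum, and RNA was taken from the myotubes after 4 days of differentiation. Each group rests on 1 siRNA in 1 cell line, and the labels do not say whether the 3 samples of a group were separate cultures, so p-values measure the spread between these samples, which may be technical. RNA was measured on 6 arrays of an Illumina mouse BeadChip with 45281 probes. Array medians of signal intensity were 162, 167 and 154 in Scramble, and 161, 167 and 152 in siDJ-1. The number of arrays limits the precision, and an exact permutation test of 3 against 3 arrays cannot give a p below 0.1, so none was run.

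The ligands of the IL-6 family bind receptors that share the IL6ST subunit. Oncostatin M signals through OSMR paired with IL6ST, leukaemia inhibitory factor (LIF) through LIFR paired with IL6ST, and IL-6 through IL6RA with IL6ST. The receptors activate JAK kinases, which phosphorylate STAT3. STAT3 enters the nucleus and induces target genes, among them its own feedback inhibitor SOCS3 and the transcription factors CEBPB and CEBPD. In skeletal muscle, IL-6 is released by contracting fibres, and LIF and oncostatin M act on myoblast proliferation and differentiation.

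The targeted gene checks the labels. Park7, the gene of DJ-1, gave signals of 12020, 10900 and 12251 in Scramble, against 5935, 6586 and 4234 in siDJ-1. All siDJ-1 arrays lay below all Scramble arrays. Park7 changed by -1.16 on the log2 scale (SE 0.14, adjusted p = 0.00344, limma), which left 44.7% of the Scramble signal.

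OSMR was measured by 3 probes that differed between the groups in opposite directions. A pair of them was designed on cDNA clones and was detected on siDJ-1 arrays alone, and the remaining one, designed on the RefSeq transcript, was detected on all arrays and was lower in siDJ-1. Detection means a detection p under 0.05, the share of negative control probes at least as bright. Probe ILMN_1247795, from clone AK040020, read 140.9, 139.6 and 142.4 on the Scramble arrays, with detection p of 0.556, 0.839 and 0.395. The same probe read 463, 455.9 and 514.9 on the siDJ-1 arrays. All siDJ-1 arrays were thus far above the lowest detected signal, which lay between 161.6 and 187.4 over the 6 arrays, and no Scramble array reached it. On the normalized log2 scale this probe had 4.73 ± 0.11 (SD, n = 3) in Scramble and 8.48 ± 0.32 (SD, n = 3) in siDJ-1. Since the Scramble signal was not detected, the change is given as a bound, with the Scramble arrays set to their detection limit, the lowest signal of any detected probe: ILMN_1247795 was at least 7.83-fold higher in siDJ-1 after this background correction. The bound holds for this correction only, since the ratio of the uncorrected mean signals, background included, was 3.39.

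Probe ILMN_2583052, from clone AK087179, read 139.5, 141.3 and 156.1 in Scramble and 240.7, 195.7 and 226.2 in siDJ-1. The groups did not overlap, and the probe was again undetected on every Scramble array and detected on every siDJ-1 array. On the normalized log2 scale it had 4.83 ± 0.26 (SD, n = 3) in Scramble and 6.48 ± 0.58 (SD, n = 3) in siDJ-1, at least 1.95-fold higher after the same correction, and the ratio of its uncorrected mean signals was 1.52. Both clone probes passed the filter on dim probes through the siDJ-1 arrays alone, so they had to differ to be tested. The normalized log2 differences, 3.75 for ILMN_1247795 and 1.65 for ILMN_2583052, depend on the background correction. They were 1.78 and 0.61 with no background correction, and 2.70 and 0.99 with an offset of 50.

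Probe ILMN_2623280, from the RefSeq transcript NM_011019.1, read 1343, 1456 and 1150.7 in Scramble and 867, 1130.3 and 667.1 in siDJ-1. The groups did not overlap, but siDJ-1 replicate 2 lay just below Scramble replicate 3. The normalized log2 difference was -0.64 (95% interval -1.01 to -0.26), which is 0.642 of the Scramble level, and it lay between -0.76 and -0.51 in all 13 alternatives of the processing. In the plot of the OSMR probes the arrays of the groups separate upward for both clone probes and downward for the RefSeq probe. The probe sequences were not used here, so where the clones lie relative to the exons of OSMR, and whether they report the receptor's mRNA, was not tested.

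**Figure D1:**
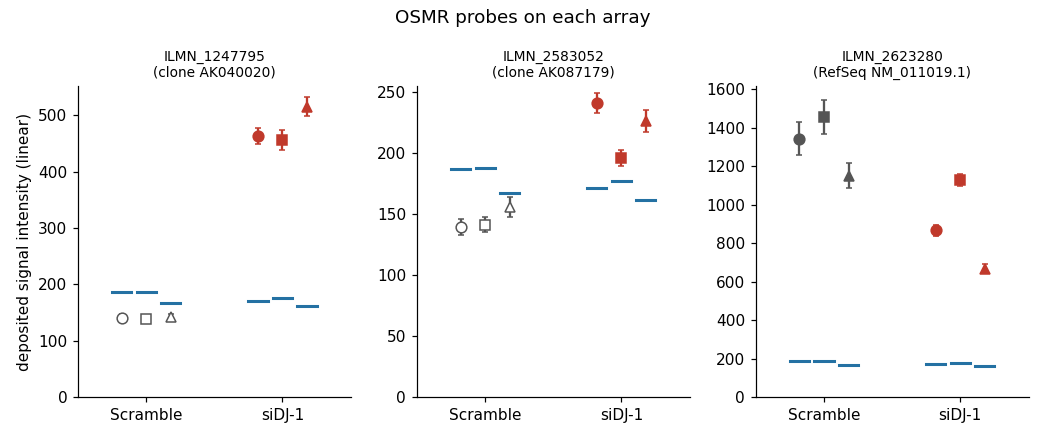
Deposited signal intensity (linear axis from 0) of the 3 OSMR probes on each of the 3 Scramble (grey) and 3 siDJ-1 (red) arrays. Symbols mark replicate 1 (circle), 2 (square) and 3 (triangle), bars the standard error over beads, open symbols arrays without detection and blue lines the lowest detected signal of each array; mean signal goes from 141 in Scramble to 478 in siDJ-1 for ILMN_1247795, and from 1317 to 888 for ILMN_2623280.

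Probes of 1 gene name passed the threshold in both directions for 41 of 3607 names with at least 2 tested probes (1.14%), which is 5.56% of the 737 names with at least 2 probes past it, and OSMR, chosen on this contrast, is one of the 41. In 6 of the 41 names a probe from a cDNA clone was higher and a RefSeq NM probe lower, namely OSMR, FBN1, H13, RAB6, SEMA5A and GRTP1, and in 1, MATN2, the reverse held. These tallies and names, chosen after the values were seen, describe the array and were not tested. Of 1210 tested clone probes 23.1% were called higher and 7.44% lower in siDJ-1, against 15.1% and 14.4% of 14335 RefSeq NM probes, 21.4% and 11.7% of 1694 RefSeq XM probes and 22.1% and 11.2% of 651 others, so calls of higher exceeded calls of lower in each of these classes. The pattern of the OSMR clone probes, undetected on all Scramble arrays and detected on all siDJ-1 arrays, was shown by 380 probes of the array, and the reverse by 50. Scramble arrays also had fewer detected probes (16985, 17399 and 18179, against 18704, 18857 and 18408) and a higher median standard error over beads (11.3, 8.30 and 8.66, against 7.17, 6.36 and 5.88). The part of these differences in the detection of the clone probes was not tested.

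The probes nearest in pattern to each OSMR probe were sought among the tested probes, by the root mean square difference over the 6 arrays of log2 signal centred on the Scramble mean. Nearest to ILMN_1247795 were a pair of probes of Tram2 and those of Srgap3, Fam71f2 and LOC100044204. Their distances were 0.658 to 1.10, so none followed this OSMR probe closely. Nearest to ILMN_2583052 were probes of Adamts6, Erdr1, CCNL, E430031D18RIK and Ndrg1, at distances of 0.190 to 0.204. Among the nearest to the RefSeq probe were those of Cdkl2, Ocel1, Gemin4 and Ebna1bp2, at 0.0497 to 0.0682. These probes were picked for their likeness to OSMR on the contrast that chose it, so their differences are a description.

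The groups overlapped on every tested probe of the remaining receptor subunits. IL6ST, the shared signal-transducing subunit, was detected on all arrays by probe ILMN_2608184, which read 308.3, 236.1 and 283.7 in Scramble and 286, 273.1 and 237.4 in siDJ-1. These ranges overlapped, and the log2 difference was 0.02 (95% interval -0.55 to 0.59). The other IL6ST probe was not detected on any array, although its signals did not overlap (means of 141 in Scramble and 158 in siDJ-1). LIFR had 3 tested probes with log2 differences of 0.06, 0.12 and 0.47, all with overlapping groups, and only ILMN_2829008 was detected on all arrays. The IL6RA probe ILMN_1255743 read 332.4 on Scramble replicate 1 but 215.6 and 195.5 on the other Scramble arrays, so its log2 difference of -0.19 (95% interval -1.11 to 0.73) had a wide error and turned positive, 0.29, without that array. Of the remaining IL6RA probes, ILMN_2706430 was detected on 2 Scramble arrays and ILMN_1216057 on 2 siDJ-1 arrays, and neither was tested, although the signals of ILMN_1216057 did not overlap.

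Among the ligands, IL6 was lower in siDJ-1. Its probe ILMN_1243601 was dim but detected on all arrays, with a signal of 316.4, 289.1 and 323 in Scramble and of 232.3, 251.4 and 192.4 in siDJ-1. All siDJ-1 arrays lay below all Scramble arrays. The log2 difference was -0.86 (95% interval -1.29 to -0.43), 0.552 of the Scramble level, and it was -0.42 with no background correction. None of the 5 LIF probes was detected on any array, so no LIF level or change can be given.

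STAT3, which carries the signal of all these receptors to the nucleus, was above Scramble on every siDJ-1 array for a pair of its 3 probes. ILMN_2698046 read 2411, 2593 and 2310 in Scramble and 3359, 3254 and 3422 in siDJ-1. ILMN_2589790 read 1362, 1541 and 1498 in Scramble and 2074, 1800 and 1938 in siDJ-1. On both probes the groups did not overlap, and the log2 differences were 0.46 (95% interval 0.16 to 0.76) and 0.45 (95% interval 0.09 to 0.80), or 1.38-fold and 1.36-fold. The other STAT3 probe, ILMN_3096144, lay between 244.1 and 321.3 over all arrays, and its groups overlapped with a log2 difference of 0.19 (95% interval -0.41 to 0.78).

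SOCS3, the feedback inhibitor that STAT3 induces, did not separate the groups. Its probe ILMN_2618176 read 2125, 2106 and 1686 in Scramble and 1918, 2274 and 1245 in siDJ-1. The siDJ-1 arrays held both the highest and the lowest value, and the log2 difference was -0.16 (95% interval -0.58 to 0.25). Without siDJ-1 replicate 3, the lowest array, it was 0.01.

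CEBPD, a C/EBP factor that STAT3 induces in many cell types, was higher in siDJ-1. Its probe ILMN_2707363 read 1582, 1153 and 1336 in Scramble and 2657, 2503 and 2534 in siDJ-1. All siDJ-1 arrays lay well above all Scramble arrays, and the log2 difference was 1.00 (95% interval 0.61 to 1.40), or 2.01-fold. A further CEBPD probe, ILMN_2588570, drawn from the same transcript, was not detected on any array. CEBPB, a related factor, read 5805, 5871 and 6295 in Scramble and 5745, 6401 and 5934 in siDJ-1. Its groups overlapped, with a log2 difference of -0.03 (95% interval -0.28 to 0.23) that was 0.12 when arrays were aligned on their 75th percentile in place of quantile normalization.

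**Figure D2:**
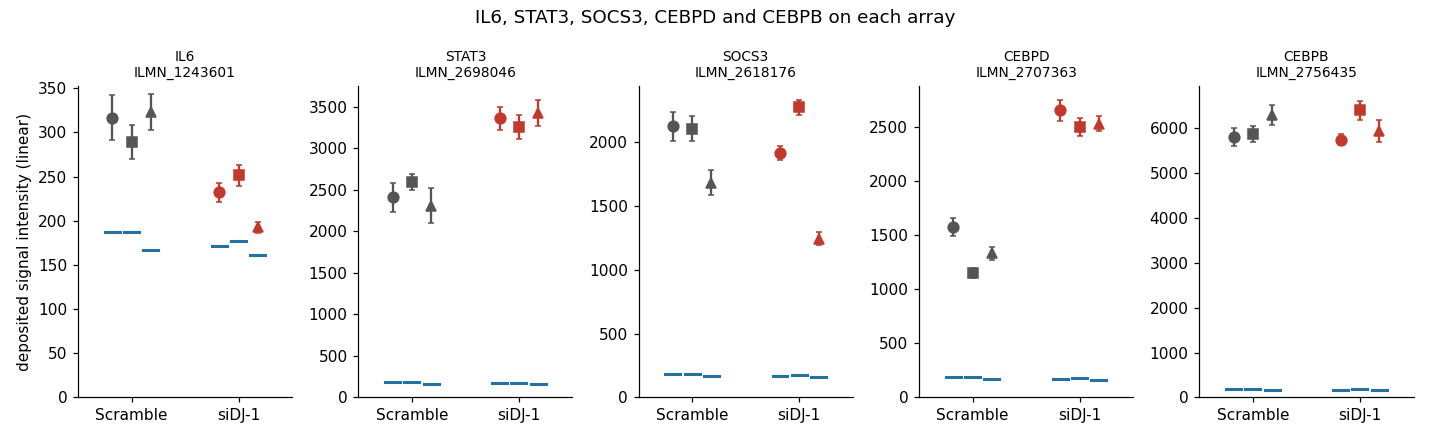
Deposited signal intensity (linear axis from 0) of 1 probe each of IL6, STAT3, SOCS3, CEBPD and CEBPB on the 3 Scramble (grey) and 3 siDJ-1 (red) arrays, with symbols, bars and blue lines as in the plot of the OSMR probes. Groups are apart for IL6 (lower in siDJ-1), STAT3 and CEBPD (higher in siDJ-1) and overlap for SOCS3 and CEBPB.

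Over the family, 15 of the 24 probes, from 9 genes, were tested, 11 were detected on all arrays, and 7 were never detected. Of the 15, 7 had groups that did not overlap, and over all tested probes the share was 48.5%. An adjusted p under 0.05 was reached by 6 probes, 4 higher and 2 lower, among them the OSMR clone probes, which had to differ to be tested, and the shares over all tested probes were 30.1% in either direction, 16.5% higher and 13.6% lower. Because the members were chosen on this contrast, nothing is read from these counts. The median difference was 0.12 over the 15 probes and 0.05 over all tested probes.

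**Figure D3:**
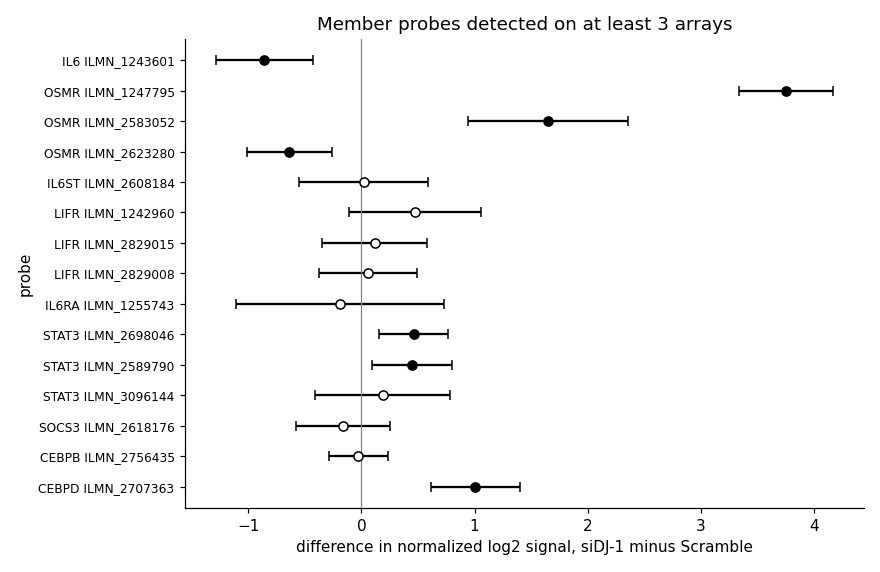
Difference in normalized log2 signal, siDJ-1 minus Scramble, of the 15 tested probes, with 95% intervals from limma. From the top the genes are IL6, OSMR, IL6ST, LIFR, IL6RA, STAT3, SOCS3, CEBPB and CEBPD. Filled symbols mark the 7 probes whose groups did not overlap; the OSMR probes span -0.64 to 3.75.

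The promoters of 4 members are shown because these genes differed in direction (OSMR by probe, IL6 lower, STAT3 higher, SOCS3 overlapping) while being linked in 1 pathway. Promoter sequences from RefSeq on GRCm38.p6 were found for 9 of the 10 genes, with no entry for Cebpd. They were searched on both strands for the STAT motifs TTCCNGGAA and TTCNNNGAA, the second of which contains the first, and for the C/EBP motifs TTGCGCAA and TTGCNNAA, the second again containing the first. Capitals mark every match in the 300 bases.
Osmr, chr15:6874264-6874563, minus strand: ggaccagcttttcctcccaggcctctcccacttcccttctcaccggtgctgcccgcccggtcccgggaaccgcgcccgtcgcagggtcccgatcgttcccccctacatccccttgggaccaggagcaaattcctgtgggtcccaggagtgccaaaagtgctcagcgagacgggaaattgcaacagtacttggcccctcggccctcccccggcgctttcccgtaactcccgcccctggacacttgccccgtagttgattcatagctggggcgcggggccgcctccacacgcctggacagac
Il6, chr5:30012864-30013163, plus strand: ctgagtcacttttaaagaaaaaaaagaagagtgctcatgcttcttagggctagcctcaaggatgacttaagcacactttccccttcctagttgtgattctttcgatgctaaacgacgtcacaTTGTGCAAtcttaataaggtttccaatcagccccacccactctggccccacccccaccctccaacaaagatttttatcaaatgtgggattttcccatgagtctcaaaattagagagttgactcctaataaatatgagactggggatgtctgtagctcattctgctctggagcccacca
Stat3, chr11:100939491-100939790, minus strand: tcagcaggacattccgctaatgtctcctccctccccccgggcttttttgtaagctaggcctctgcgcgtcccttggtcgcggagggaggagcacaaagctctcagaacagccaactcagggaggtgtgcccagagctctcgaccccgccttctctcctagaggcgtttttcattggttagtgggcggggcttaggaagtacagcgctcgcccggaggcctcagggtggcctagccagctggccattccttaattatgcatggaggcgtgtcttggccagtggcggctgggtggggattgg
Socs3, chr11:117969317-117969616, minus strand: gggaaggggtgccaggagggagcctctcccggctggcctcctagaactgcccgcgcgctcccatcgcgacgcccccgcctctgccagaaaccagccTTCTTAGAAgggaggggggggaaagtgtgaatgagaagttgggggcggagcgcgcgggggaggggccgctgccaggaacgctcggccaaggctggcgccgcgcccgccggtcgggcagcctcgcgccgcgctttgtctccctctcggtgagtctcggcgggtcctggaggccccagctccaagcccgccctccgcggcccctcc
Socs3 held 1 match, TTCTTAGAA, to TTCNNNGAA, which 8.30% of 32851 promoters of the same length hold, while TTCCNGGAA is in 1.15%. Il6 held 1 match, TTGTGCAA, which is TTGCNNAA on the other strand and occurs in 10.8% of promoters, against 0.183% for TTGCGCAA. No match stood in the windows of the other 7 genes. A match describes letters and is no site, and no match says only that the letters are not in this window.

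The rest of the pathway was examined in 7 lists of other genes, with 82 tested probes of 151, for which limma's moderated test was used with adjustment over all 17890 tested probes. In all, 16 probes were higher and 15 lower in siDJ-1 (37.8% of the 82, against 30.1% over the array), and the median log2 fold change was 0.05, as over all tested probes. By list, the median was -0.10 for other ligands, -0.02 for other receptors, 0.08 for JAK and STAT, 0.31 for inhibitors, -0.22 for adaptors and the MAPK arm, 0.64 for other C/EBP factors and 0.02 for STAT3 targets. The counts over the lists rest on all 6 arrays: without siDJ-1 replicate 1 they were 3 higher and 7 lower, without siDJ-1 replicate 3 they were 3 and 8, without Scramble replicate 2 they were 9 and 9, and without Scramble replicate 3 they were 7 and 10.

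Of 13 probes of other IL-6 family ligands, 3 were tested and 1 fell. Oncostatin M itself, the ligand of OSMR, had 2 probes and neither was detected on any array. Ctf1, cardiotrophin-1, a ligand that signals through LIFR, fell with a log2 fold change of -0.68 (SE 0.12, adjusted p = 0.00996, limma), from a mean signal of 449 to 316. Il11, named after its value was seen, was not past the threshold, with a log2 fold change of -0.10. Of 7 probes of other receptors, 3 were tested and none passed, and the brightest, of Il11ra1, had a log2 fold change of -0.02.

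Among JAK kinases and other STATs, 11 probes of 25 were tested, 3 were higher and 3 lower. The receptor kinases Jak1 and Jak2 rose, and no probe of the kinase Tyk2, named after its values were seen, passed. Jak1 changed by 0.79 (SE 0.16, adjusted p = 0.0145, limma) and Jak2 by 0.57 (SE 0.09, adjusted p = 0.00643, limma) and 0.45 on a further probe named after its value was seen. Stat2, a factor of the interferon response, fell with a log2 fold change of -0.89 (SE 0.15, adjusted p = 0.00839, limma). The calls on Stat2 and the first Jak2 probe held with each array left out. That of Jak1 was lost without siDJ-1 replicate 1 (adjusted p = 0.0507, limma) and without replicate 3 (adjusted p = 0.0567, limma), and that of the further Jak2 probe without Scramble replicate 2 or any siDJ-1 array (adjusted p of 0.0579 to 0.0807, limma).

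Among inhibitors of the pathway, 15 of 25 probes were tested, 5 were higher and 1 lower. Cish, a SOCS family member induced by STATs, rose by 1.20 on the log2 scale (SE 0.17, adjusted p = 0.00508, limma), from a probe detected on 2 Scramble and 3 siDJ-1 arrays. Ptpn2, a phosphatase of JAKs and STATs, fell on a clone probe (AK076072) with a log2 fold change of -1.53 (SE 0.19, adjusted p = 0.00365, limma). Both calls held with each array left out and in the other alternatives that tested these probes, but with no background correction the log2 fold changes were 0.44 for Cish and -0.58 for Ptpn2, and both probes are dim. Pias4 (0.72), a pair of Pias1 probes (0.41 and 0.36) and Pias3 (0.32, named after its value was seen), of the family that restrains STATs in the nucleus, were the other probes that rose. Without siDJ-1 replicate 1, without siDJ-1 replicate 3 and without Scramble replicate 3, all 4 of these calls were lost. Pias4 and ILMN_2737776 of Pias1 also lost theirs without Scramble replicate 2, ILMN_2737776 without siDJ-1 replicate 2, and Pias3 without any 1 of the 6 arrays. Adjusted p over these losses ran from 0.0556 to 0.138 (limma).

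Among adaptors and the MAPK arm, by which the receptors also signal through RAS, 18 of 29 probes were tested, 4 were higher and 6 lower. Hras fell on both tested probes, with log2 fold changes of -0.75 and -0.61. Ptpn11, the phosphatase SHP2 that links receptors to RAS, fell on 3 probes (-0.51, -0.48 and -0.46). A pair of Mapk3 probes (0.76 and 0.61) and the adaptor Gab1 (0.64) rose. Over the alternatives the log2 fold changes of the Mapk3 probes, which are dim, came down to 0.26 and 0.31. Ptpn11 and the second Mapk3 probe were named after their values were seen. The call on Hras ILMN_2481071 held with each array left out. The other 7 calls named here were lost without siDJ-1 replicate 3, and 6 of them, all but Mapk3 ILMN_1218551, without siDJ-1 replicate 1. Calls were also lost without Scramble replicate 1 (both Mapk3 probes, Ptpn11 ILMN_3001598), Scramble replicate 2 (all of the 7 but Ptpn11 ILMN_2743723), Scramble replicate 3 (Gab1, Hras ILMN_1223624, Mapk3 ILMN_1218551, Ptpn11 ILMN_1245874 and ILMN_3001598) and siDJ-1 replicate 2 (Gab1, Hras ILMN_1223624, Mapk3 ILMN_1218551). Adjusted p over these losses ran from 0.0514 to 0.137 (limma).

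Other C/EBP factors gave 5 tested probes of 12, 1 higher and 1 lower. Cebpg rose on 1 of 2 tested probes (0.74), and Cebpa, detected on all 3 Scramble arrays and on 1 siDJ-1 array, fell (-0.63). Ddit3, a C/EBP factor of the stress response named after its values were seen, was not past the threshold (0.67 and 0.64, adjusted p = 0.0680 and 0.0595, limma). The Cebpg call was lost without siDJ-1 replicate 1 or 3 (adjusted p = 0.0721 and 0.0710, limma), and that of Cebpa without Scramble replicate 2 or any siDJ-1 array (adjusted p of 0.0570 to 0.0850, limma). Both probes are dim, and with no background correction the log2 fold changes were 0.23 for Cebpg and -0.19 for Cebpa. Over all alternatives the Cebpa call changed in 10 of 14 and that of Cebpg in 3 of 14, with adjusted p up to 0.135 and 0.0721.

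Known STAT3 target genes outside the 10 gave 27 tested probes of 40, of which 3 were higher, 3 lower and 21 not past the threshold, with a median log2 fold change of 0.02. Of the 3 higher, the probe of Pim1, a survival kinase, was undetected on all Scramble arrays and entered the test through siDJ-1 arrays alone, so it had to be higher and nothing is read from its call. Mcl1, an anti-apoptotic protein, rose by 0.47, and Bcl6, a transcriptional repressor named after its value was seen, by 0.36. The cell cycle gene Ccnd1 fell on a pair of probes (-0.51 and -0.51), and Fosl2 fell (-0.49, adjusted p = 0.0167, limma). Fosl2 lost its call without siDJ-1 replicate 1 (adjusted p = 0.0706, limma), and Mcl1 without Scramble replicate 2 or 3 or siDJ-1 replicate 1 or 3 (0.0537 to 0.0827). Both Ccnd1 probes lost theirs without each array but siDJ-1 replicate 2 (0.0585 to 0.141), and Bcl6 without any 1 of the 6 (0.0568 to 0.159).

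**Figure D4:**
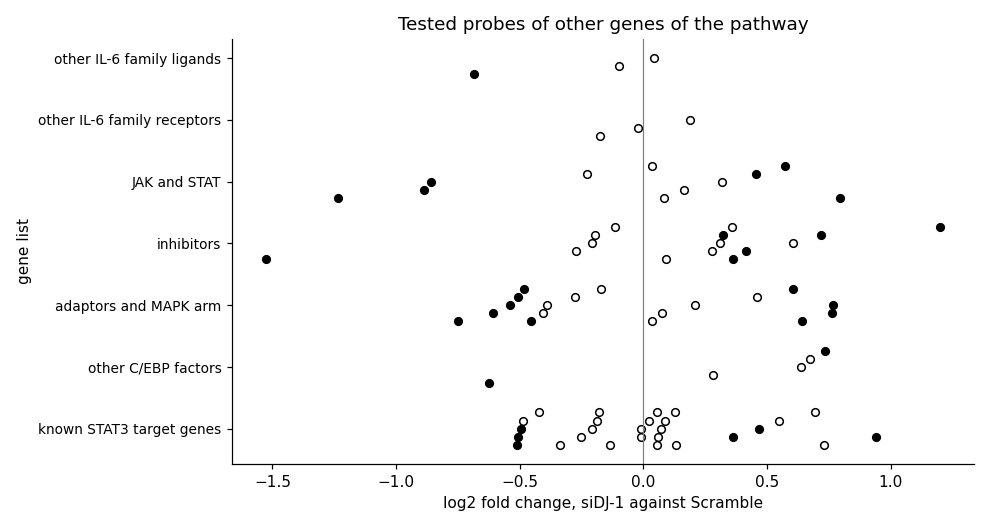
Log2 fold change, siDJ-1 against Scramble, of the 82 tested probes in the 7 lists of other pathway genes, each point 1 probe, with vertical offsets within a list only for legibility. Filled points are the 31 probes with adjusted p under 0.05 in limma, 16 above 0 and 15 below.

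Markers of muscle cells and of other cell types were looked at beside the pathway. The culture was of 1 cell line, so the name of a marker list does not show that such cells were present. The myotube markers had 20 tested probes, 2 higher and 8 lower, against 16.5% higher and 13.6% lower over all tested probes. Their median log2 fold change was -0.20. Their summed linear signal was 270545, 267431 and 264645 in Scramble and 226795, 236359 and 211173 in siDJ-1. By its mean over the 6 arrays, the brightest of them was Acta1, with a log2 fold change of -0.005. Acta1, and Myog, Ckm, Mylpf, Tnnc1 and Myh3, named after their values were seen, had no probe past the threshold. Myh8, a developmental myosin heavy chain, fell on 3 probes (-1.11, -1.03 and -1.01). Ttn, the giant sarcomeric protein, had probes in both directions, among them ILMN_1228221 (1.77) and ILMN_1223811 (-0.76). Of undifferentiated or cycling myoblast markers, 8 probes were tested and 2 fell, Myod1 (-0.90, adjusted p = 0.00317, limma) and Ccnb1 (-0.57, adjusted p = 0.0161, limma). Of the other 6, none past the threshold, 5 had a positive log2 fold change (Mki67, Top2a and Cdk1, named after their values were seen), and the median of the 8 was 0.22. Their summed linear signal was 6111, 6509 and 5814 in Scramble and 5262, 5951 and 5515 in siDJ-1, with Cdk1 the brightest. Pax7 and Myf5 had no tested probe. The Ccnb1 call was lost without siDJ-1 replicate 1 or 3 (adjusted p = 0.0584 and 0.0564, limma), that of Myh8 ILMN_2978038 (-1.01) without Scramble replicate 1 or 3 or siDJ-1 replicate 1 (0.0553 to 0.0690), and that of Ttn ILMN_1223811 without any 1 of the siDJ-1 arrays (up to 0.0862). The myotube markers in siDJ-1 were thus not at 0, and whether a shift in cell composition bears on OSMR, STAT3 or CEBPD was not tested. In these bulk samples fewer cells of a type and less RNA per cell cannot be told apart.

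Of the 16 leukocyte and macrophage probes, 12 were not detected on any array and 2 were tested, Cd14 and Cd68, with neither past the threshold. The brightest was Cd14 (-0.59, adjusted p = 0.0626, limma), and the summed linear signal was 583, 673 and 584 in Scramble and 574, 576 and 538 in siDJ-1. That Cd14 was not past the threshold depends on the processing, since its call changed in 7 of 15 alternatives. Over these its log2 fold change ran from -0.78 to -0.27. No probe of endothelial or adipocyte markers was tested. Fibroblast markers had 11 probes and 4 were tested, all called lower in siDJ-1, against 13.6% called lower over all tested probes. These were a pair of Dcn probes (-1.79 and -1.34), Pdgfrb (-0.82) and Pdgfra (-0.58). No probe of Thy1 or Lum, named after their values were seen, was detected on any array. The summed linear signal of the fibroblast markers was 8697, 8677 and 7371 in Scramble and 3472, 4478 and 2840 in siDJ-1, with Dcn the brightest. The Pdgfra call was lost without each array but siDJ-1 replicate 2 (adjusted p of 0.0774 to 0.124, limma), and the part of these markers in the signal of the receptors was not tested.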

How the data were processed

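Gene expression was measured in 3 Scramble and 3 siDJ-1 samples of C2C12 myotubes on a single Illumina Mouse BeadChip. The authors used GenomeStudio to export, per probe and array, a signal intensity without normalization or background subtraction, with its bead number and standard error. The deposited detection p-value compares a probe with negative controls. In R 4.3.3 with limma 3.58.1, background was corrected by normexp (offset 16, negative controls inferred from detection p), followed by quantile normalization and log2. Probes with detection p under 0.05 on at least 3 arrays entered limma's linear model with moderated variance, with Benjamini-Hochberg adjusted p (threshold 0.05). Steps were tested on simulated data. Promoters and figures were processed in Python 3.11.15 (matplotlib 3.10.9).

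Members and lists were chosen with earlier results of these data known. Named were all member probes, Park7, from each list up to 5 called, non-overlapping probes with the largest change (otherwise the brightest tested probe), and the 5 probes nearest to each OSMR probe; others are marked. Gene names are those of the file, or for 32345 probes of the RefSeq gene table. No 2 arrays held identical signals. The alternatives tried were other background corrections, offsets, scalings and filters, a prior variance trend, an unmoderated t-test, a replicate block, and each array left out. Neither the probe file nor the gene table names a genome build.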

Additional observations from a re-analysis of the deposited data

How the results depend on the processing

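Park7 kept its direction and call in all 15 alternatives (largest adjusted p 0.0206; log2 fold change -1.24 to -1.05 with an array left out). OSMR kept its directions on all 3 probes in 13 alternatives each. ILMN_1247795 moved to 1.78 with no background correction, 1.81 with no background correction and a 75th percentile shift and 2.70 with an offset of 50, and ILMN_2583052 to 0.61, 0.65 and 0.99, and with an array left out they ranged over 3.59 to 3.84 and 1.46 to 1.94; an added offset or uncorrected background compresses differences near background by construction. Signal over background limits these probes. Over the other 12 member probes, 3 of 156 values moved by 1 SD or more, CEBPB to 0.12 under the 75th percentile shift and IL6 to -0.42 and -0.41 without background correction.

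Called probes numbered 2957 higher and 2430 lower, and 1908 and 1611 with no filter, where more probes were tested. With an array left out they ranged from 1387 to 2859 higher and 1172 to 2412 lower, lowest without siDJ-1 replicate 1, and were 1451 and 1261 without siDJ-1 replicate 3. For the IL-6 family lists (16 higher, 15 lower) they were 7 and 9 with no filter, 7 and 9 under an unmoderated t-test, 9 higher under the replicate block, and 3 to 13 higher and 7 to 13 lower with an array left out. Apart from the filter and the smaller number of arrays, the cause was not tested. The unmoderated t-test gave 7026 probes at an unadjusted p under 0.05 and 3674 after Benjamini-Hochberg adjustment. The replicate block gave 4350 calls against 5387. Past the threshold were 6 member probes, and 2 under an unmoderated t-test. The labels do not say whether same-numbered arrays share more than a number. Deviations of same-numbered arrays correlated across probes at 0.0537, 0.0474 and 0.0199, with each array closest to its own number. Whether they share a preparation or batch was not tested. Of 57 called probes named outside the members, 26 kept their call with each array left out, 10 of these picked for likeness to the OSMR clone probes, and 194 of 874 values over all alternatives changed a call.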
